A study of Drosophila melanogaster with 18 samples.

Results

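The proteasome is the protease that degrades proteins tagged with ubiquitin. Its core particle is a barrel of stacked rings, with outer rings of alpha subunits that gate the entrance and inner rings of beta subunits that carry the catalytic sites. A regulatory particle caps the barrel. Its base unfolds substrates with a ring of ATPases (the Rpt subunits) and its lid removes the ubiquitin chain. *Drosophila* also carries duplicated copies of several subunit genes, which are known as genes of the male germline.

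Transcripts of the proteasome subunits were followed by RNA-Seq in the 2nd antennal segment of the fly, the seat of its inner ear, Johnston's organ (JO). Genes were included by name, when the name began with Prosalpha or Prosbeta, or with Pros, Rpn or Rpt and a digit. This gave 47 of 16624 listed genes, of which 32 were general subunits and 13 were testis-type copies ending in T, R, R1 or R2. A further 2 genes, *Prosalpha4T1* and *Prosalpha4T2*, carry a digit after the T and were counted with the copies. All flies were virgin Canton-S, a wild-type strain. Ages were 1, 5, 25 and 50 days in males and females, and 10 days in males alone. Each combination had 2 libraries, so every age but day 10 held 4. Values are normalised read counts, meaning reads per gene divided by 1 scaling factor per library, and where 4 values are listed for an age the pair of males comes before the pair of females.

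The libraries held 5815182 to 14315927 reads in genes, fewest in the males of day 25 (5815182 and 6414483). The sum of 9 marker genes of JO neurons and scolopidia was 5469 to 9268 in all 18. The sum of 10 retina markers varied far more, with 88955 to 168282 in CT06, CT09, CT15, CT16 and CT18 and 1251 to 36434 in the other 13. In 2 day 50 libraries transcripts of both sexes were high. CT16, labelled male, held 25444 of the yolk protein transcript *Yp1* beside 21999 of *roX1*, an RNA of male dosage compensation. CT18, labelled female, held 16418 of *roX1* beside 19045 of *Yp1*. In each, 1 of these transcripts was at the level of its label and the other was not. To a smaller extent *Yp1* was also raised in CT15, labelled male and of day 50. It held 1944 of *Yp1* beside 24812 of *roX1*, where the males of younger ages held 94.3 to 184 of *Yp1*. Alternatives without CT16 and CT18 kept CT15. Testis transcripts were raised in CT03 (female, day 1) and CT10 (male, day 10), where *betaTub85D* stood at 176 and 280, against 4.87 to 49.0 in the other 16 libraries, and 11 of 21 testis markers were above the others in both. The segment is a mixed tissue, in which fewer cells of a type and less RNA per cell cannot be told apart.

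General subunits were abundant, with higher levels per kilobase of exon in the core particle than in the regulatory particle. Without scaling by exon length, mean values ran from 888 to 3180 in the core particle and from 793 to 1878 in the regulatory particle. Per kilobase of exon, the mean normalised read count over the 18 libraries had a median of 1945 in the beta ring (7 genes) and 1594 in the alpha ring (6 genes). The medians were 867 for the ATPases of the base (6 genes), 770 for the lid (8 genes) and 545 for the other base subunits (4 genes). *Prosbeta5*, which carries the chymotrypsin-like site, was highest at 2792 per kilobase (2R, 10819978 to 10821178 of dm6). Next came *Prosalpha3* at 2290 and *Prosalpha5* at 2136, both of the alpha ring. *Rpn2*, a scaffold of the base, was the lowest of the 31 general subunits that passed the filter on low values, at 351 per kilobase.

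The remaining general subunit was close to undetected. *Prosalpha1* (2R, 7827303 to 7828678, minus strand) averaged 2.67 normalised read counts, with 55 reads in all 18 libraries together and a highest value of 7.91. Its neighbour *CG30382*, which the annotation calls *Prosalpha1R*, lies on the same strand at 7830413 to 7831771 and averaged 1.89, with 35 reads in all. The level of *Prosalpha1* is uncertain for this reason, as whether reads were shared by this pair was not tested.

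All 15 copies were expressed below the general gene of the same subunit. Their mean levels per kilobase had a median of 22.1, and ran from 3.41 for *Rpt4R* to 171 for *Prosalpha6T*. *Prosalpha6T* reached 19.3% of its general gene *Prosalpha6*, *Rpn13R* reached 18.4% of *Rpn13*, and *Prosalpha4T2* reached 10.9% of *Prosalpha4*. The other 12 copies stood at 0.449% to 2.31% of their general gene. Summed over the copies, they made up 0.684% to 3.81% of all proteasome values in a library. Neither library with raised testis transcripts stood out for the copies, as 0 of 15 were above the other 16 libraries in both CT03 and CT10. *Rpn12R* alone exceeded them in CT10, at 24.7.

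**Figure D1:**
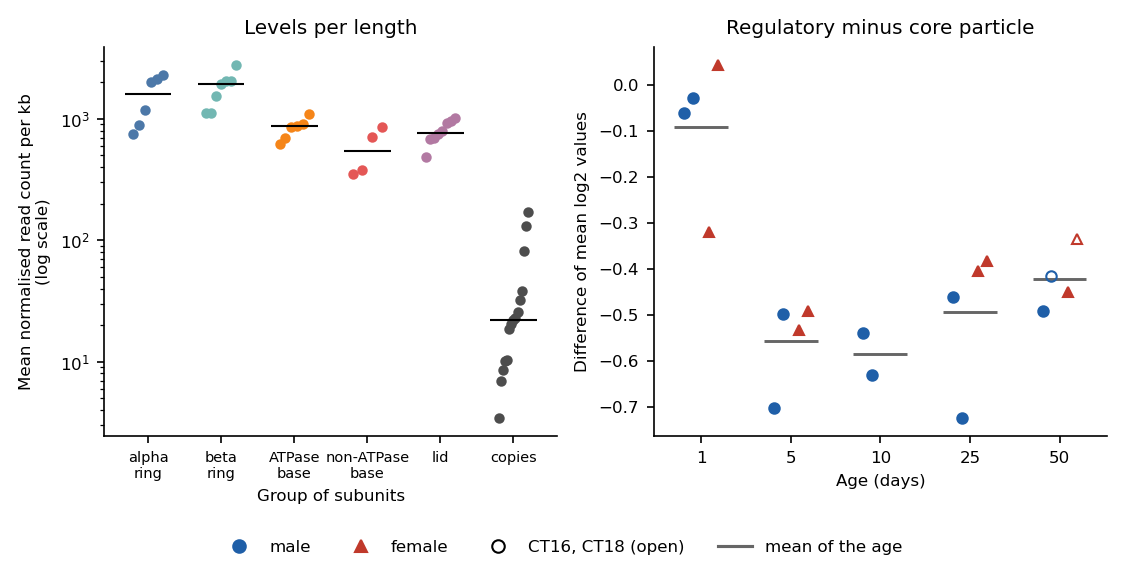
Left, mean normalised read count per kilobase of exon over 18 libraries (log axis), 1 point per gene, with the median as a line, for the 31 general subunits that passed the filter and for 15 copies. Right, mean log2 value of the regulatory particle minus that of the core particle in each library by age, with the mean of each age as a line and CT16 and CT18 as open symbols. The copies sit at 3.41 to 171 per kilobase, below every general subunit shown, and the difference at right is highest at day 1.

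Across ages the general subunits moved together, in steps down and up rather than in a single direction. Their summed value was 49544 to 86288 in the libraries of day 1 and 28033 to 41998 at day 5. In the males of day 10 it was 43444 and 48187. It was 28896 to 34401 at day 25 and 38764 to 47226 at day 50. The libraries of day 1 did not overlap with those of any later age. The copies followed another course, with sums of 593 to 686 at day 1, 575 to 851 at day 5, 576 and 623 at day 10, 698 to 1145 at day 25 and 433 to 631 at day 50. Pairs of the 31 general subunits had a median correlation of 0.88 over the 18 libraries (lowest 0.67, highest 0.98), and of 0.82 without the libraries of day 1. This describes genes that share libraries and a scaling factor. Pairs of the 14 copies that passed the filter had a median correlation of 0.15.

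**Figure D2:**
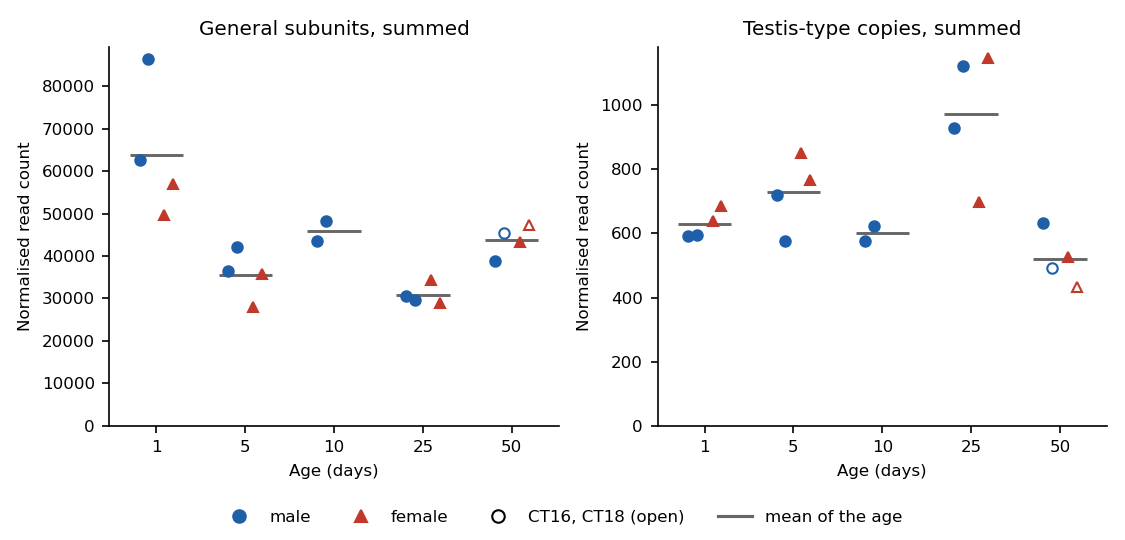
Summed normalised read count of the 32 general subunits (left) and the 15 copies (right) in each library by age in days, males as circles and females as triangles, with the mean of each age as a line and CT16 and CT18 as open symbols. General subunits were highest at day 1 (49544 to 86288) and lowest at days 5 and 25, and the copies had their highest mean at day 25 (698 to 1145).

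Between day 1 and day 5, the first days of adult life, 24 of 31 tested general subunits fell, and 0 rose. A call needed an adjusted p below 0.1 in limma and a change of more than 1.5-fold, averaged over the sexes. Of all 14663 genes tested, 8.78% fell and 4.69% rose. The median log2 change of the general subunits was -0.85, against 0.03 over all genes. Day 5 lay below day 1 without overlap in 21 general subunits and in 1 copy, a pattern shown by 10.2% of all genes.

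The fall covered the whole regulatory particle. All 18 of its general genes fell, with a median log2 change of -1.02, while 6 of the 13 tested core genes did, with a median of -0.58. *Rpn11*, the lid enzyme that cuts ubiquitin chains off substrates (2L, 5058404 to 5059790), changed most among the general subunits. It stood at 687 and 1005 in males and 592 and 723 in females of day 5, against 2266 and 3567 in males and 1413 and 1994 in females of day 1. The groups did not overlap, and the log2 fold change was -1.57 ± 0.18 (SE, adjusted p = 1.8e-05 in limma).

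The next largest falls were all in the regulatory particle. *Rpn1*, a scaffold of the base that docks ubiquitin shuttles, averaged 811 ± 177 at day 5 and 1982 ± 624 at day 1 (SD, n = 4 each), a log2 fold change of -1.26 ± 0.19 (adjusted p = 0.00020 in limma). *Rpn9* of the lid fell by 1.20, although 15.7% of its exon length overlaps antisense genes, from which unstranded reads cannot be told apart. The same holds for a part of the exons of *Rpt6* and for 7.93% of *Prosbeta2* and 7.11% of *Prosbeta5*. It also holds for 7.14% of *Rpt2*, 6.35% of *Rpt4* and 6.32% of *Rpn7*, and for smaller shares of some other subunits. *Rpn6*, a lid subunit that clamps the lid to the core, fell by 1.19, and *Rpn10*, a ubiquitin receptor, fell by 1.15. *Rpn7* of the lid fell by 1.11. All 6 ATPases fell, by 1.00 in *Rpt3* to 0.84 in *Rpt1*. *Rpn5* showed the smallest fall of the regulatory particle, 0.66 on the log2 scale.

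In the core particle the catalytic genes differed in how far they changed. *Prosbeta5* stood at 2764 and 2967 in males and 1904 and 2474 in females of day 5, against 3617 and 5179 in males and 4331 and 3565 in females of day 1. Every library of day 5 was below every library of day 1, and *Prosbeta5* fell with a log2 fold change of -0.73 ± 0.15 (adjusted p = 0.0026 in limma). *Prosbeta2*, which carries the trypsin-like site, had a log2 fold change of -0.55 ± 0.13, short of the fold limit although its adjusted p was 0.0095 in limma. *Prosbeta1*, the caspase-like subunit, had -0.35 ± 0.14 and missed both limits (adjusted p = 0.10 in limma). Its libraries overlapped, with 1801, 1793, 1216 and 1681 at day 5 and 2179, 2788, 1693 and 1709 at day 1. *Prosalpha3*, *Prosalpha4*, *Prosalpha5*, *Prosalpha6* and *Prosbeta4* made up the rest of the core genes that fell, by 0.60 to 0.75. *Prosbeta1* was the 1 general subunit whose adjusted p did not pass 0.1.

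The balance of transcripts between the regulatory and the core particle moved with this step. The mean log2 value of the 18 regulatory genes minus that of the 13 core genes was -0.70, -0.50, -0.53 and -0.49 at day 5, against -0.06, -0.03, -0.32 and 0.04 at day 1. All 4 libraries of day 5 were below all 4 of day 1. The difference was -0.54 and -0.63 at day 10, ran from -0.72 to -0.38 at day 25 and from -0.49 to -0.33 at day 50. The 14 later libraries thus lay below the 4 of day 1, although CT18 (-0.33) came close to CT03 (-0.32).

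Both sexes took part in the early fall. In males alone 25 general subunits fell at day 5 relative to day 1, against 5.75% of all genes. In females alone 21 fell, against 6.25% of all genes. *Rpn11* had a log2 fold change of -1.77 ± 0.26 in males and -1.36 ± 0.26 in females, and the difference between the sexes was called for 0 of 45 tested subunits and 0.0% of all genes (limma, with 0 of the 45 at an unadjusted p below 0.05). Leaving out single libraries gave 21 to 29 falling subunits instead of 25, copies included. Transcripts of muscle moved in the same step. The sum of 18 muscle markers was 26205 to 32068 at day 5 and 104554 to 155892 at day 1, without overlap, also in 16 of the 18 markers taken singly. Its part in the fall of the proteasome genes was not tested.

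**Figure D3:**
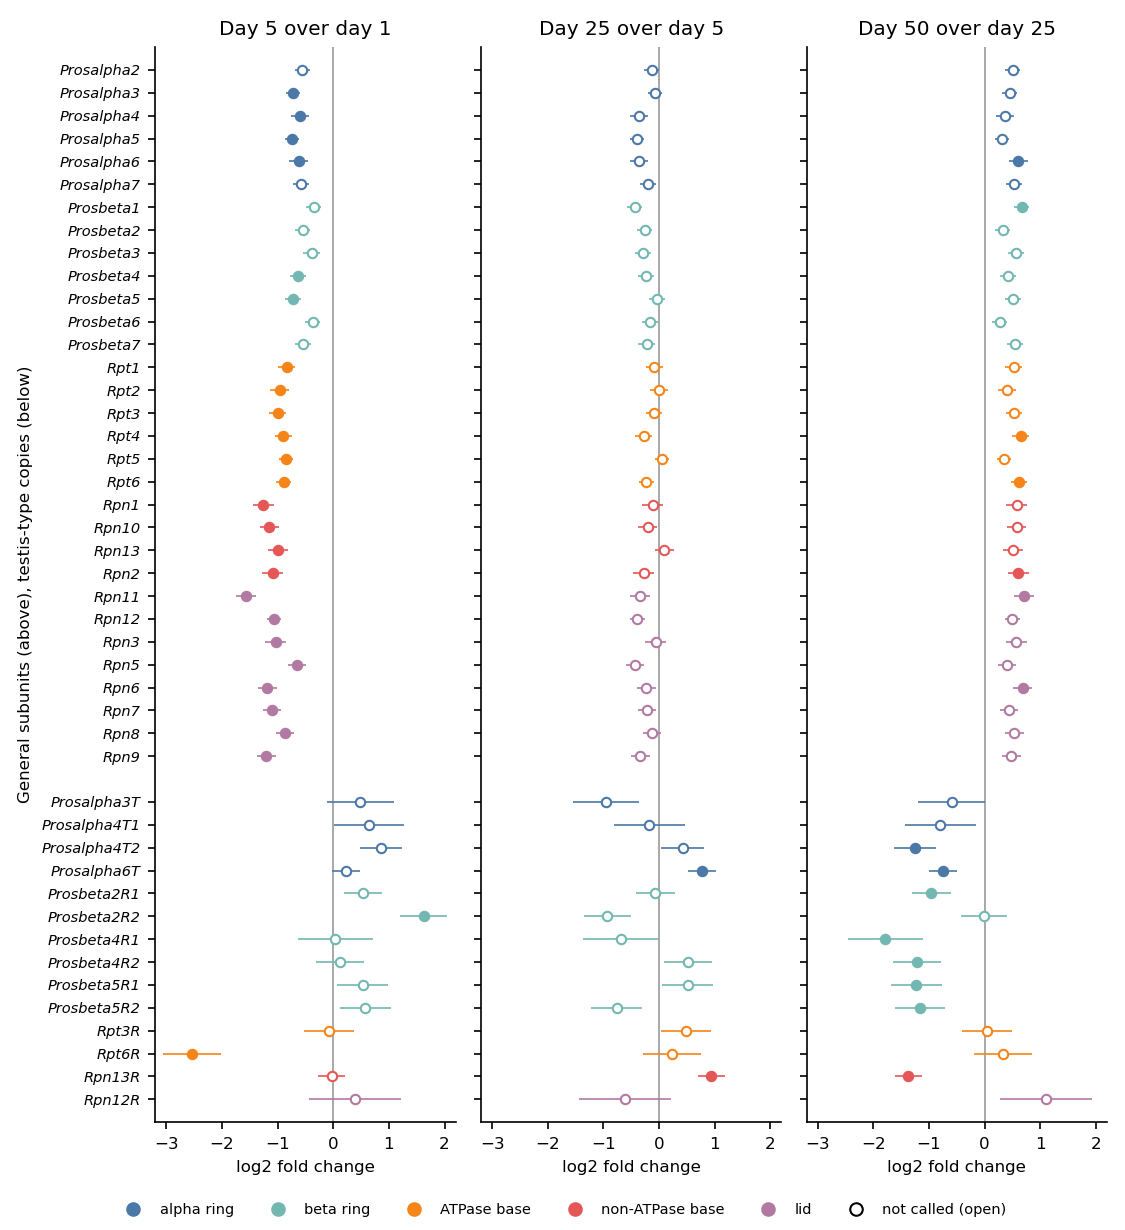
Log2 fold change with its standard error (bars) for 31 general subunits (above) and 14 copies (below) in 3 intervals, averaged over the sexes, coloured by part of the complex, with filled points for called changes. All general subunits lie left of 0 from day 1 to day 5, with the regulatory genes farthest left, and right of 0 from day 25 to day 50, where 8 copies fell.

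Among the copies, *Rpt6R* alone fell with the general subunits between these ages. This copy of the ATPase gene *Rpt6* (3R, 30582198 to 30583697) stood at 13.9 and 14.2 in males and 4.27 and 14.5 in females of day 5, against 57.0 and 124 in males and 56.7 and 48.4 in females of day 1. The groups were far apart, with 4 to 19 reads per library at day 5 and 45 to 116 at day 1. Its log2 fold change was -2.53 ± 0.52 (adjusted p = 0.0030 in limma), against -0.89 ± 0.14 in *Rpt6* itself. *Rpt6R* ran with the mean of the general subunits over the 18 libraries (r = 0.80), while the other 14 copies ranged from -0.68 to 0.11. Without the libraries of day 1 the value for *Rpt6R* was 0.39.

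*Prosbeta2R2*, a copy of the trypsin-like subunit gene, rose between the same ages, alone among the 14 copies tested. It stood at 41.6 and 49.7 in males and 50.2 and 30.6 in females of day 5, against 20.5 and 8.55 in males and 13.6 and 11.8 in females of day 1. The groups did not overlap, and the log2 fold change was 1.63 ± 0.42 (adjusted p = 0.014 in limma). The counts behind it were small, with 40 to 56 reads per library at day 5 and 8 to 23 at day 1. The median log2 change of the 14 copies was 0.44.

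**Figure D4:**
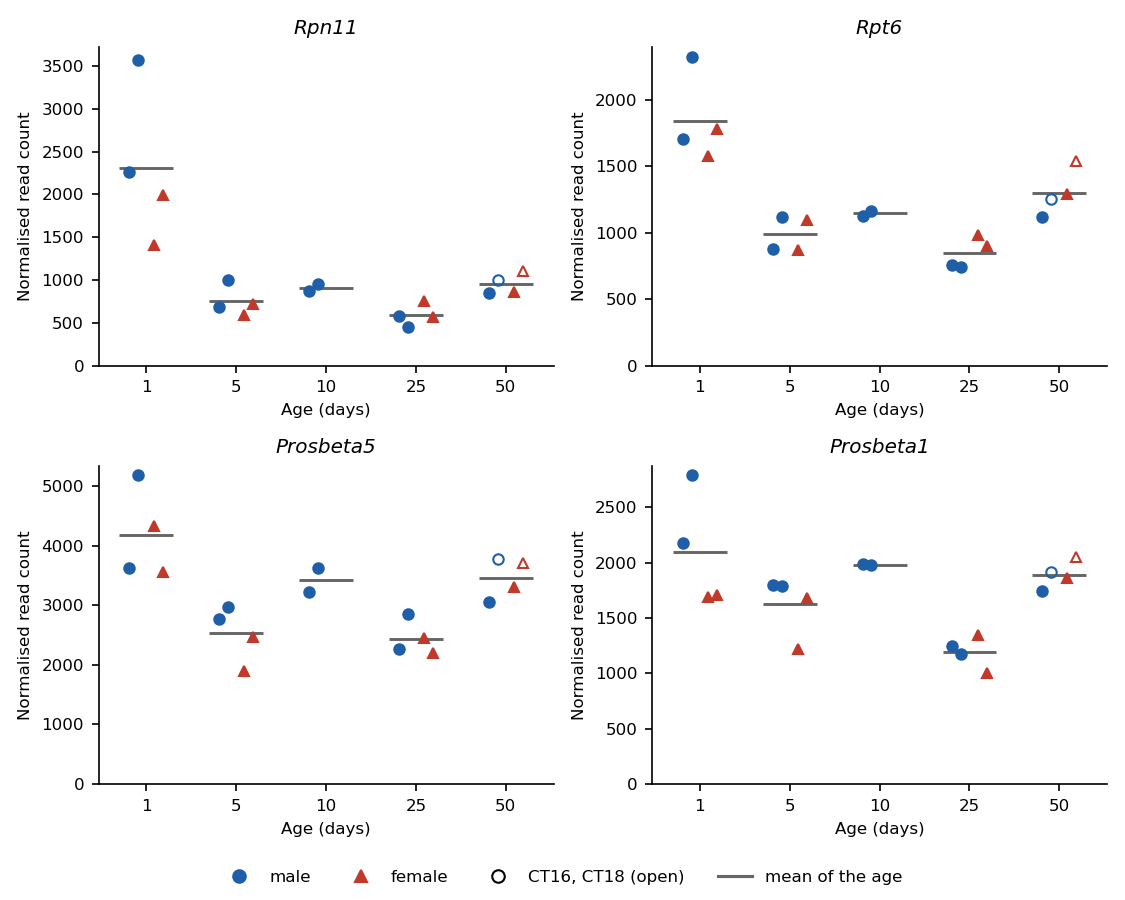
Normalised read counts of *Rpn11*, *Rpt6*, *Prosbeta5* and *Prosbeta1* in each library by age in days, males as circles and females as triangles, with the mean of each age as a line and CT16 and CT18 as open symbols. In *Rpn11* every later library (453 to 1104) lies below the 4 of day 1 (1413 to 3567), while *Prosbeta1* at day 50 (1744 to 2049) lies within the range of day 1 (1693 to 2788).

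In males, day 10 stood apart from day 25. At day 25, 21 general subunits were lower than at day 10 and 2 copies were higher, where 12.2% of all genes fell and 16.8% rose. *Prosalpha6* changed most, with 745 and 508 at day 25 against 1084 and 1156 at day 10, a log2 fold change of -0.86. *Prosbeta3*, at -0.84, and *Rpn11*, at -0.83, followed, and all 8 lid genes fell. The males of day 25 had the fewest reads of all libraries, and the part of depth was not tested. Between days 5 and 10 in males 0 of 45 subunits and 0.0% of all genes were called (limma, with 1 subunit at an unadjusted p below 0.05), and the median log2 change of the general subunits was 0.23, against 0.02 over all genes.

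Between day 5 and day 25, both sexes together, 0 general subunits passed both limits. In all genes 3.93% fell and 8.76% rose. Of 31 general subunits 29 had a negative change, with a median of -0.22 against -0.02 over all genes. An unadjusted p below 0.05 in limma was reached by 6 of the 31, and by 3879 of all 14663 genes. edgeR and DESeq2 also called 0. *Prosbeta1* had the largest change of the 31, at -0.43 ± 0.14 (adjusted p = 0.049 in limma). Changes of day 5 relative to day 1 and of day 25 relative to day 5 share the libraries of day 5.

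In the same interval 2 copies rose, *Rpn13R* and *Prosalpha6T*. *Rpn13R*, a copy of the ubiquitin receptor gene *Rpn13* (X, 5131898 to 5132985), stood at 165 and 275 in males and 206 and 315 in females of day 25, against 77.0 and 69.2 in males and 238 and 166 in females of day 5. The groups overlapped through the females of day 5. The log2 fold change was 0.94 ± 0.24 (adjusted p = 0.021 in limma). *Prosalpha6T* (2L, 13232039 to 13233058) stood at 260 and 336 in males and 145 and 353 in females of day 25, against 156 and 125 in males and 167 and 160 in females of day 5, a log2 fold change of 0.77 ± 0.25 (adjusted p = 0.058 in limma). Of its 4 libraries of day 25, female CT13 was as low as those of day 5. The other 3 libraries, and those of highest *Rpn13R*, included CT12 and CT14, in which low genes in general read high. The lower quartile of all gene values was 20.4 in CT12, 19.2 in CT07 and 17.9 in CT14, against a median of 14.9 over 18 libraries. CT03 at 17.3 and CT11 at 17.1 came close to CT14. Without CT07, CT12 and CT14, 0 subunits rose in this interval, and 0 did without CT12 or without CT14 alone.

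Between day 25 and day 50 general subunits and copies went opposite ways. Among general subunits 7 rose and 0 fell, and among copies 8 fell and 0 rose, where 9.78% of all genes rose and 17.4% fell. The rise was small and broad. All 31 general subunits had a positive change, with a median of 0.52 against -0.04 over all genes. Of them 30 had an adjusted p below 0.1 in limma, most under the limit of 1.5-fold. An unadjusted p below 0.05 in limma was reached by 30 of the 31, and by 6129 of all 14663 genes. Day 50 lay above day 25 without overlap in 22 general subunits, a pattern shown by 11.0% of all genes.

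*Rpn11* rose most. It stood at 853 and 997 in the libraries labelled male and 864 and 1104 in those labelled female of day 50, against 580 and 453 in males and 751 and 573 in females of day 25. The groups did not overlap, and the log2 fold change was 0.71 ± 0.18 (adjusted p = 0.013 in limma). *Prosbeta1* stood at 1744, 1917, 1858 and 2049 at day 50, against 1244, 1174, 1348 and 1004 at day 25, again without overlap, a log2 fold change of 0.67 ± 0.14 (adjusted p = 0.0047 in limma). *Rpn6*, *Rpt4*, *Rpt6*, *Prosalpha6* and *Rpn2* rose by 0.61 to 0.68. Of these 7 genes, 6 (85.7%) were among the 25 that fell between day 1 and day 5, of which they made up 24.0%. *Prosbeta1* was the exception. In that earlier step 24 of all 31 general subunits fell, so 6 of 7 is near the share of the whole group. These intervals have no library in common.

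Which genes passed the fold limit depended on single libraries. Leaving out any 1 library gave 5 to 16 rising subunits, with 16 without female CT13, 15 without male CT15 and 11 without male CT11. Without CT16 and CT18, which held transcripts of both sexes, 2 rose, and without CT07, CT12 and CT14, 1 did. In males alone 9 general subunits rose, against 8.17% of all genes, and in females alone 2 did, against 2.88%. The sum of 6 hemocyte markers moved in the same step, at 6488 to 7660 at day 50 and 3004 to 3995 at day 25, without overlap (also in 5 of the 6 markers singly). Its part in the rise of the subunits was not tested. The retina sum was 6380 to 168282 at day 50 and 12770 to 21451 at day 25, and 0 of its 10 markers separated these ages. The part of retina transcripts in the rise was not tested either. The difference between the sexes was called for 0 of 45 subunits and 0.0% of all genes (limma, with 2 of the 45 at an unadjusted p below 0.05).

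The copies that fell at day 50 were *Prosbeta4R1*, *Rpn13R*, *Prosalpha4T2*, *Prosbeta5R1*, *Prosbeta4R2*, *Prosbeta5R2*, *Prosbeta2R1* and *Prosalpha6T*. *Rpn13R* stood at 90.7 and 74.7 in the libraries labelled male and 120 and 78.7 in those labelled female of day 50, below every library of day 25 (165 to 315). Its log2 fold change was -1.37 ± 0.24 (adjusted p = 0.0029 in limma). *Prosalpha4T2* (2R, 24500780 to 24502277), a copy of an alpha ring gene, stood at 123, 41.3, 42.2 and 63.5 at day 50, against 222 and 173 in males and 117 and 102 in females of day 25. The groups overlapped through CT15, and the log2 fold change was -1.25 ± 0.38 (adjusted p = 0.025 in limma).

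*Prosalpha6T* had a log2 fold change of -0.74 ± 0.25, with 178, 139, 188 and 123 at day 50 overlapping the 145 of CT13. Among the rest, *Prosbeta4R1* was close to the detection limit, at 1.23, 4.39, 0 and 0 at day 50 against 14.0, 12.3, 0 and 7.54 at day 25. *Prosbeta5R1*, *Prosbeta5R2*, *Prosbeta4R2* and *Prosbeta2R1*, copies of catalytic or other beta ring genes, had log2 fold changes of -1.23 to -0.96. The remaining copies tested had no call, with *Rpt6R* at 0.33 ± 0.52 and *Rpt3R* at 0.04 ± 0.45. The values of low genes in general moved in the same step, as the lower quartile of all genes was 9.31 to 14.7 at day 50 and 12.8 to 20.4 at day 25. Its part in the fall of the copies was not tested. Without CT07, CT12 and CT14, 1 copy fell, without CT16 and CT18, 2 did, and leaving out 1 library gave 2 to 8. The lowest counts were 2 without CT14 and 3 without CT12, CT16 or CT18.

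**Figure D5:**
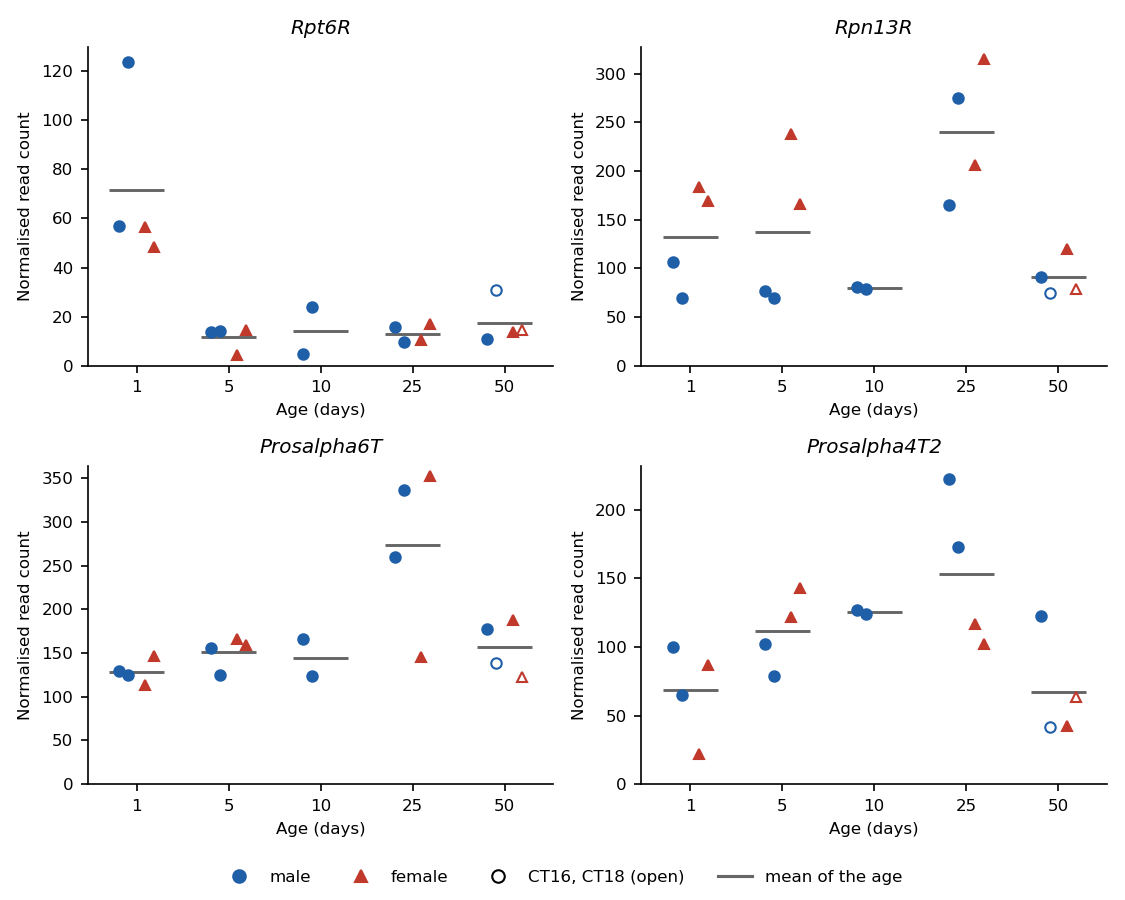
Normalised read counts of the copies *Rpt6R*, *Rpn13R*, *Prosalpha6T* and *Prosalpha4T2* in each library by age in days, males as circles and females as triangles, with the mean of each age as a line and CT16 and CT18 as open symbols. *Rpt6R* is high at day 1 only (48.4 to 124), and *Rpn13R* is higher in females (166 to 238) than in males (69.2 to 107) at days 1 and 5.

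Set against day 1, part of the general subunits were lower at day 50. Of the 31 tested 11 were lower and 0 higher, where 12.8% of all genes fell and 9.21% rose. The median log2 change was -0.50, against -0.05 over all genes, with -0.62 in the regulatory and -0.26 in the core particle, and day 50 lay below day 1 without overlap in 12 general subunits and 1 copy, against 11.4% of all genes. In edgeR and DESeq2 0 subunits rose either. *Rpn11* was lower by a log2 fold change of -1.20 ± 0.18, *Rpn9* by -1.06 ± 0.17 and *Rpn12* of the lid by -0.96 ± 0.13 (adjusted p = 5.6e-05 in limma for *Rpn12*). *Rpn7* and *Prosalpha5* followed, at -0.88 and -0.84, and *Rpn1* at -0.79. *Rpn10*, *Rpn2*, *Rpn6*, *Rpn5* and *Prosalpha4* completed the list.

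The lid accounted for 6 of these 11 genes, the non-ATPase base for 3 and the core particle for 2, and 0 of the 6 ATPases passed the fold limit. The catalytic genes *Prosbeta1* (-0.12 ± 0.14), *Prosbeta2* (-0.48 ± 0.13) and *Prosbeta5* (-0.26 ± 0.15) were not called. Among the copies *Prosbeta4R1* (-2.43 ± 0.67), *Rpt6R* (-1.97 ± 0.52) and *Prosbeta5R2* (-1.35 ± 0.46) fell. *Rpt6R* stood at 11.0, 30.8, 13.8 and 14.4 at day 50, below the 48.4 to 124 of day 1. The day 1 libraries also serve the comparison with day 5. Leaving out 1 library gave 10 to 18 falling subunits in place of 14, and 19 fell without CT16 and CT18. Muscle transcripts moved over the same ages, as the sum of the 18 markers was 17190 to 19999 at day 50 and 104554 to 155892 at day 1, without overlap, also in all 18 taken singly. Its part in the lower proteasome values was not tested.

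By sex, 23 general subunits fell in males at day 50 relative to day 1 (9.38% of all genes) and 5 fell in females (10.4% of all genes). *Rpn11*, *Rpn12*, *Rpn7*, *Rpn9* and *Prosalpha5* were the 5 in females, and they fell in males as well. In females alone the median log2 change of the 13 core genes was 0.01, and 6 of them had a negative change. The difference between the sexes was not called for any subunit, with 0.0% of all genes called. An unadjusted p below 0.05 in limma was reached by 14 of 45 subunits, and by 1460 of all 14663 genes. The lowest p among the subunits was in *Prosalpha3T*, a copy with 0 to 19 reads per library at these ages. For *Rpn2* the male change minus the female change was -1.01 ± 0.37 (adjusted p = 0.47 in limma). These values rest in part on CT16 and CT18, which held high transcripts of both sexes, and on CT15, where *Yp1* was raised.

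Between the sexes at days 1, 5 and 25, 0 subunits were higher in males and 1 was lower, where 0.409% of all genes were higher and 2.73% lower. The single call was *Rpn13R*, an X-linked copy, with a male minus female log2 difference of -0.90 ± 0.20 (adjusted p = 0.015 in limma). At day 1 it stood at 107 and 69.5 in males and 184 and 169 in females, and at day 5 at 77.0 and 69.2 in males and 238 and 166 in females, without overlap at either age. At day 25 the sexes overlapped, with 165 and 275 in males and 206 and 315 in females, and the call was lost without CT07, CT12 and CT14. General subunits were higher in males in 28 of 31 cases, with a median log2 difference of 0.27 against 0.04 over all genes. None passed the adjusted limit in limma, and edgeR and DESeq2 called 0. An unadjusted p below 0.05 in limma was reached by 14 of the 31, and by 1557 of all 14663 genes.

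The remaining copies gave low and scattered values. *Rpt3R*, a copy of an ATPase gene, ran from 14.2 to 65.0 with no call at any age. *Rpn12R*, *Prosalpha4T1* and *Prosalpha3T* averaged 8.08, 6.21 and 9.14 normalised read counts. *Rpt4R*, which did not pass the filter, averaged 5.13, with its highest value of 22.0 in CT18. *Prosbeta5R1* averaged 42.5, with 11.0 to 90.9 over the libraries, and *Prosbeta4R2* 36.4, with 14.4 to 76.2. *Prosbeta5R2* ran from 5.69 to 97.8 and *Prosbeta2R1* from 9.67 to 56.5. At these levels counting alone gives a wide spread, and calls on the copies rest on few reads.

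A list of proteasome cofactors outside the naming rule held 19 tested genes. The list is broad, as it also holds *cnc*, *maf-S*, *Keap1* and *Pngl*. Between day 1 and day 5, 4 of the 19 fell and 0 rose, where 8.78% of all genes fell. The median log2 change of the 19 was -0.13, against 0.03 over all genes. The largest fall was in *Uch-L5*, a deubiquitinase that binds *Rpn13*, which stood at 219 and 269 in males and 174 and 201 in females of day 5, against 513 and 867 in males and 488 and 475 in females of day 1. Its libraries did not overlap, and the log2 fold change was -1.41 ± 0.19 (adjusted p = 8.6e-05 in limma). *CG12795* fell by 1.12, *CG5384*, the fly counterpart of the proteasome-bound deubiquitinase Usp14, fell by 1.06, and *Sem1*, a small lid subunit, fell by 0.71. At day 50 relative to day 25, where 9.78% of all genes rose, 3 of the 19 did, *Sem1* by 0.74, *Pngl* by 0.69 and *CG12795* by 0.65. At day 50 relative to day 1, 2 of the 19 fell and 2 rose, shares near the 12.8% and 9.21% of all genes. *Uch-L5* and *CG5384* were lower by 1.25 and 0.97 as log2 values, while *REG*, an alternative activator of the core particle, and *maf-S*, the partner of the transcription factor encoded by *cnc*, rose by 0.73 and 0.62.

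Of 27 tested genes of ubiquitin and its conjugation 4 fell between day 1 and day 5 and 0 rose, where 8.78% of all genes fell, with a median log2 change of -0.18 against 0.03 over all genes. They were *Uch*, a ubiquitin hydrolase (log2 fold change -0.73), *Ubi-p63E*, a polyubiquitin gene (-0.69), and the conjugating enzymes *eff* (-0.64) and *Ubc6* (-0.61). Between day 5 and day 25 *Ubc87F* alone was called, and it rose, as did 8.76% of all genes. At day 50 relative to day 25, 5 of the 27 rose and 1 fell, where 9.78% of all genes rose and 17.4% fell. *Ubc87F* fell by 1.36, while *RpL40* and *RpS27A*, which encode ubiquitin fused to ribosomal proteins, rose by 0.78 and 0.71. *Uch*, *Ubi-p5E* and *Roc1a*, a subunit of cullin ligases, rose with them. At day 50 relative to day 1, 2 of the 27 rose, *RpL40* by 0.69 and *RpS27A* by 0.63, and *Cul1* fell, counts no larger in share than the 9.21% and 12.8% of all genes. Of 6 genes of the p97 complex, which extracts ubiquitinated proteins for the proteasome, *TER94* and *Ufd1-like* fell between day 1 and day 5, with log2 fold changes of -0.64 and -0.59, and *Ufd1-like* rose by 0.67 at day 50 relative to day 25.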

How the data were processed

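RNA of the 2nd antennal segment was sequenced in 18 libraries. Per the labels and the study's methods, libraries were made with Nextera XT, paired reads were mapped to dm6 (Partek Flow) and HTSeq counted them by gene (versions not given in the sources used here). The deposited values are a signal, namely counts that the authors scaled by a DESeq2 size factor in each library. Undoing the factor gave whole reads for 100% of values (within 0.01). The table also has a mean over libraries and the authors' own fold changes, test statistics and p-values, which were not used.

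Values were fitted as log2 of the value plus 1 with limma 3.58.1 in R 4.3.3 (trend method), a coefficient standing for every combination of age and sex. Genes reaching 10 in 2 or more libraries were tested, 14663 in all, which included 45 of 47 subunits, and fold changes on this scale understate the change of low genes. P-values were adjusted over all tested genes by Benjamini-Hochberg, and calls needed an adjusted p below 0.1 and a fold change above 1.5, the limits of the study. Replicates are labelled only as separate samples, so p-values measure the spread between these libraries, which may be technical. The fit was tested on simulated data. Positions and exon lengths come from the reference annotation of dm6, in which 15896 of 15960 matched genes started within 100 bases of the deposited position. Library depth limits the precision of the copies and the number of libraries that of the general subunits.

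Members, lists and tests were chosen with earlier results of these data known. Named genes are the catalytic subunits, up to 6 called members with the largest change per direction and comparison, members with the highest and lowest values, every copy, members called by sex or in opposite directions, and up to 4 called genes per pathway list and direction. A further gene, *Roc1a*, was named for completeness after its value was seen. Recovered reads were also tested with edgeR 4.0.16 and with DESeq2 1.42.0, and other alternatives were pseudocounts of 0.5 and 8, no filter, a mean of at least 50, TMM scaling, additive age and sex, other limits and libraries left out. Figures were drawn with matplotlib 3.10.9.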

Additional observations from a re-analysis of the deposited data

Results flagged for a closer look

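For 6 subunits both libraries of 1 sex moved one way with age and both of the other sex moved the opposite way. The share of all genes with this pattern was not counted, so the number is not read as a result about the subunits. The test of the difference in limma did not call any of the 6. The values below are the male change minus the female change on the log2 scale. *Prosalpha3T* was higher in the later males and lower in the later females at day 5 relative to day 1 (2.08, adjusted p = 1.00) and at day 50 relative to day 1 (4.27, adjusted p = 0.47). At day 25 relative to day 5, the copies *Prosbeta2R1* (1.79, adjusted p = 0.81) and *Prosalpha4T2* (1.39, adjusted p = 0.81) were higher in the later males and lower in the later females. At day 50 relative to day 1, the beta ring genes *Prosbeta1* (-0.63, adjusted p = 0.48), *Prosbeta3* (-0.38, adjusted p = 0.63) and *Prosbeta7* (-0.64, adjusted p = 0.49) were lower in the later males and higher in the later females. The values at day 50 rest in part on CT16 and CT18, which held high transcripts of both sexes, and on CT15, where *Yp1* was raised.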

How the results depend on the processing

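For 71 called or catalytic changes of single subunits, the alternative settings together gave 2124 values, which turned the sign of 0 called changes. They kept the side of the limits in 2009 cases, lost a call in 106 (26 of the changes) and gained one in 9. Counts of subunits called were within 1.5 times of those reported under edgeR, DESeq2, other pseudocounts, no filter, TMM scaling and additive age and sex. Without the fold limit 4 subunits fell at day 25 relative to day 5, 30 rose at day 50 relative to day 25 and 25 fell at day 50 relative to day 1. With a mean of at least 50, 0 rose at day 5 relative to day 1 and 3 fell at day 50 relative to day 25. With an adjusted p below 0.05, 1 rose at day 25 relative to day 5 and 4 fell at day 50 relative to day 25. Without CT16 and CT18, 2 fell and 2 rose at day 50 relative to day 25. Without CT07, CT12 and CT14, an alternative chosen after seeing the data, 0 rose at day 25 relative to day 5, 1 fell and 1 rose at day 50 relative to day 25, and 0 differed by sex. With day 50 included, 2 subunits were lower in males. Leaving out each library in turn gave 21 to 29 falling and 1 to 2 rising subunits at day 5 relative to day 1, 0 to 2 rising at day 25 relative to day 5, 2 to 8 falling and 5 to 16 rising at day 50 relative to day 25, and 10 to 18 falling at day 50 relative to day 1. A lone library of a group was then taken to vary as the others do. No paired analysis was possible because neither the labels of the libraries nor the deposited columns carry replicate numbers.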
